A study of Mus musculus with 69 samples.

Results

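The mouse proliferin genes Prl2c2, Prl2c3 and Prl2c5 are described here across primary vascular smooth muscle cells (VSMC) and endothelial cells (EC) under metabolic and humoral stressors. They are 3 of the 56953 gene identifiers in each deposited count table and were taken by gene symbol. They were chosen by the fold changes of Prl2c2 and Prl2c3 under HG + FFA and ALL stressors in WT VSMC and EC, so those effects are given as a description, without a test. The libraries were poly(A) RNA-Seq of cells from male C57BL/6 mice, of which WT VSMC gave 16, KO VSMC 15 and EC 38. WT VSMC were aortic smooth muscle cells with an intact Egfr gene, KO VSMC carried floxed Egfr and Cre driven by the SM22 promoter, and EC were CD45-/CD31+ cells isolated from the heart. VSMC were used up to passage 7 and kept without serum before and during the treatment, which the methods do not state for EC. Control cells received no stressor. HG + FFA stood for 20 mM glucose with free fatty acids, labelled as 100 µM and described in the methods as oleate and palmitate at 100 µM each. AII + NA stood for 30 nM angiotensin II with 300 nM of a catecholamine that the labels call epinephrine and the methods norepinephrine. ALL combined both, and every exposure lasted 24 h. Libraries with the same set number came from 1 animal and passage, in sets 1 to 4 for WT VSMC, 5 to 8 for KO VSMC and 9 to 18 for EC. ALL of set 5, Control of set 10 and AII + NA of set 15 were not analysed here. A single mouse gave EC sets 17 and 18, and EC sets 9, 10, 15 and 16 came from the animals of VSMC sets 1, 2, 7 and 6, so EC sets 15 and 16 were taken from mice that gave KO VSMC although EC are labelled WT.

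Proliferins are secreted glycoproteins of the prolactin and growth hormone family, best known as products of trophoblast giant cells in the placenta, where they act on blood vessel growth. In cultured mouse fibroblasts the genes are classical targets of serum and growth factors, acting through AP-1 (FOS and JUN dimers). The glucocorticoid receptor is a separate regulator of their promoter. The mannose 6-phosphate receptor Igf2r binds proliferin and is held to carry its signal to endothelial cells.

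The genes lie on chromosome 13 of GRCm39. Prl2c3 (ENSMUSG00000056457) is at chr13:12805705-12814968 on the minus strand, Prl2c2 (ENSMUSG00000079092) at chr13:13170710-13179968 on the minus strand and Prl2c5 (ENSMUSG00000055360) at chr13:13357298-13366508 on the plus strand. The gap between Prl2c3 and Prl2c2 is 355.7 kb and that between Prl2c2 and Prl2c5 is 177.3 kb. No exon base of the 3 genes overlaps another annotated gene. Each has 5 coding exons, with a coding sequence of 672 bases in Prl2c2 and Prl2c3 and 666 bases in Prl2c5. Prl2c2 and Prl2c3 differ at 3 coding bases (99.6% identity), and Prl2c2 and Prl2c5 at 20, with 6 more bases in a gap (97.0%). The stretch of coding exon 4 below is shown because it holds positions that tell the genes apart, and capitals mark those 5 positions:
Prl2c2 (chr13:13171992-13172051, minus strand): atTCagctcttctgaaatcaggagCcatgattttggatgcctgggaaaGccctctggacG
Prl2c3 (chr13:12807003-12807062, minus strand): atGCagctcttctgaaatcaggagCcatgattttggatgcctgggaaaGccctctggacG
Prl2c5 (chr13:13365172-13365231, plus strand): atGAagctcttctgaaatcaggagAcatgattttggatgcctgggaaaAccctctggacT
With positions counted from 1 at the 5′ end and Prl2c2 as the reference, Prl2c3 carries T3G, and Prl2c5 carries T3G, C4A, C25A, G49A and G60T.

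Reads were 150 bases long and paired, and the authors counted reads with several alignments. Of the 693 windows of 150 bases in the Prl2c2 transcript, 353 (50.9%) were identical in Prl2c3 and 0 in Prl2c5. Of the 697 windows of Prl2c5, 0 occurred in another gene. At 75 bases, 71.2% of the Prl2c2 windows were identical in Prl2c3 and 8.2% in Prl2c5. A read that lies within these windows matches both Prl2c2 and Prl2c3 unless its mate tells them apart. How far each gene varied on its own was not tested. Of the Prl2c5 windows of 75 bases, 19.6% were identical in another gene, and whether reads of other genes entered its count was not tested. The pseudogene Gm7040 shares 79 of the windows of 150 bases with Prl2c2.

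The RefSeq promoter table (GRCm38.p6) held 2 of the 3 members, Prl2c3 and Prl2c5. Over the 300 bases around the start site they matched at 287 bases and differed by 12 mismatches and 2 gapped bases (96.0% identity). Prl2c2, the member with the most counts, had no entry, and whether promoter differences bear on the counts was not tested. The 250 bases before the start site are shown because counts of these genes differed widely, with capitals at each base that differs from or is missing in the other:
Prl2c3 (chr13:12800080-12800329, minus strand): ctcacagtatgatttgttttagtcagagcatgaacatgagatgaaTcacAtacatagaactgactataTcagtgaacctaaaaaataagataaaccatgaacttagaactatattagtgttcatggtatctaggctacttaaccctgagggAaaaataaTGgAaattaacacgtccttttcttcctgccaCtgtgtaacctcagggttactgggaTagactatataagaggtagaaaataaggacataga
Prl2c5 (chr13:13182466-13182715, plus strand): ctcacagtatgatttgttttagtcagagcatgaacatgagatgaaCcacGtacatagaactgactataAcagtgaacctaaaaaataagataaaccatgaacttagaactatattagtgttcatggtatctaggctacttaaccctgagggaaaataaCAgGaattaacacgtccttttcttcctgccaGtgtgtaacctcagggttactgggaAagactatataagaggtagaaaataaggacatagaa
Both strands were searched. The AP-1-like motif TGANTCA, which contains the AP-1 motif TGAGTCA, matched at 1 position in Prl2c3 (TGAATCA, beginning 209 bases before the start site) and at 0 in Prl2c5, and 7.81% of the 32851 promoters in the table hold it. The TATA motif TATATAA, found in 3.24% of promoters, matched in both, 30 bases before the start site in Prl2c3 and 31 in Prl2c5. TGAGTCA (5.2% of promoters), the cyclic AMP response element TGACGTCA (1.79%), the PPAR response element (0.0396%), the glucocorticoid half-site AGAACA (19.0%) and TATAAA (13.6%) were not among the letters of either promoter.

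Total counts per library lay between 17166133 and 43240489. The targeted gene Egfr had set means of 234 to 408 FPM (counts relative to library size after TMM scaling, as in CPM) in WT VSMC, 0.939 to 1.80 FPM in KO VSMC sets 6 to 8 and 35.8 FPM in KO VSMC set 5, which was 10.5% of the WT VSMC mean. In EC the set means were 9.64 FPM in set 15 and 2.66 FPM in set 16, whose mice gave KO VSMC (2.84% and 0.784% of the WT VSMC mean), and 13.3 to 156 FPM in the other sets. Smooth muscle markers (6 of 7 with a mean of at least 3 FPM) were present in VSMC of both genotypes, as were all 5 fibroblast markers, but the same numbers of both kinds were also present in EC. The smooth muscle sum was 324 to 1960 FPM in WT VSMC, 667 to 3340 FPM in KO VSMC and 210 to 3920 FPM in EC, and KO VSMC had a fibroblast sum of 1230 to 6160 FPM against 3730 to 10700 FPM in WT VSMC. In EC all 8 endothelial markers had a mean of at least 3 FPM, but their sum ranged from 53.8 to 4890 FPM between libraries. EC sets 9, 11 and 13 (12 libraries) had mean endothelial sums of 59.7, 133 and 59.2 FPM beside fibroblast sums of 3780, 8970 and 10200 FPM and smooth muscle sums of 840, 3310 and 3010 FPM, which goes against their label, and fitted EC results are given with and without them. Cell type and the labelled batch (B1 for VSMC, B2 for EC) cannot be told apart, nor can fewer cells that make a transcript and less of it per cell.

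Prl2c2 and Prl2c3 were low in Control cells and far from even between animals. In WT VSMC Control, Prl2c2 was at 0.741, 1.17, 3.24 and 0.239 FPM in sets 1 to 4, a 13.5-fold range. In KO VSMC Control it was at 0.646, 1.73, 0.684 and 5.55 FPM in sets 5 to 8. In EC Control the lowest of 9 libraries had 0 counts, the median was 0.192 FPM and the highest 19.7 FPM. The ranges of the cell types overlapped throughout. Prl2c3 followed the same order of sets in WT VSMC, with 0.656, 0.977, 1.97 and 0.308 FPM. In KO VSMC Control Prl2c3 was at 0.510, 1.09, 1.73 and 3.79 FPM, and in EC its median was 0.174 FPM (range 0 to 8.51). Differences between sets made up 69.2% of the sum of squares of log2 Prl2c2 in WT VSMC, 34.5% in the 3 complete KO VSMC sets and 73.4% in the 8 complete EC sets, against 20.7%, 56.9% and 18.1% between conditions.

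**Figure D1:**
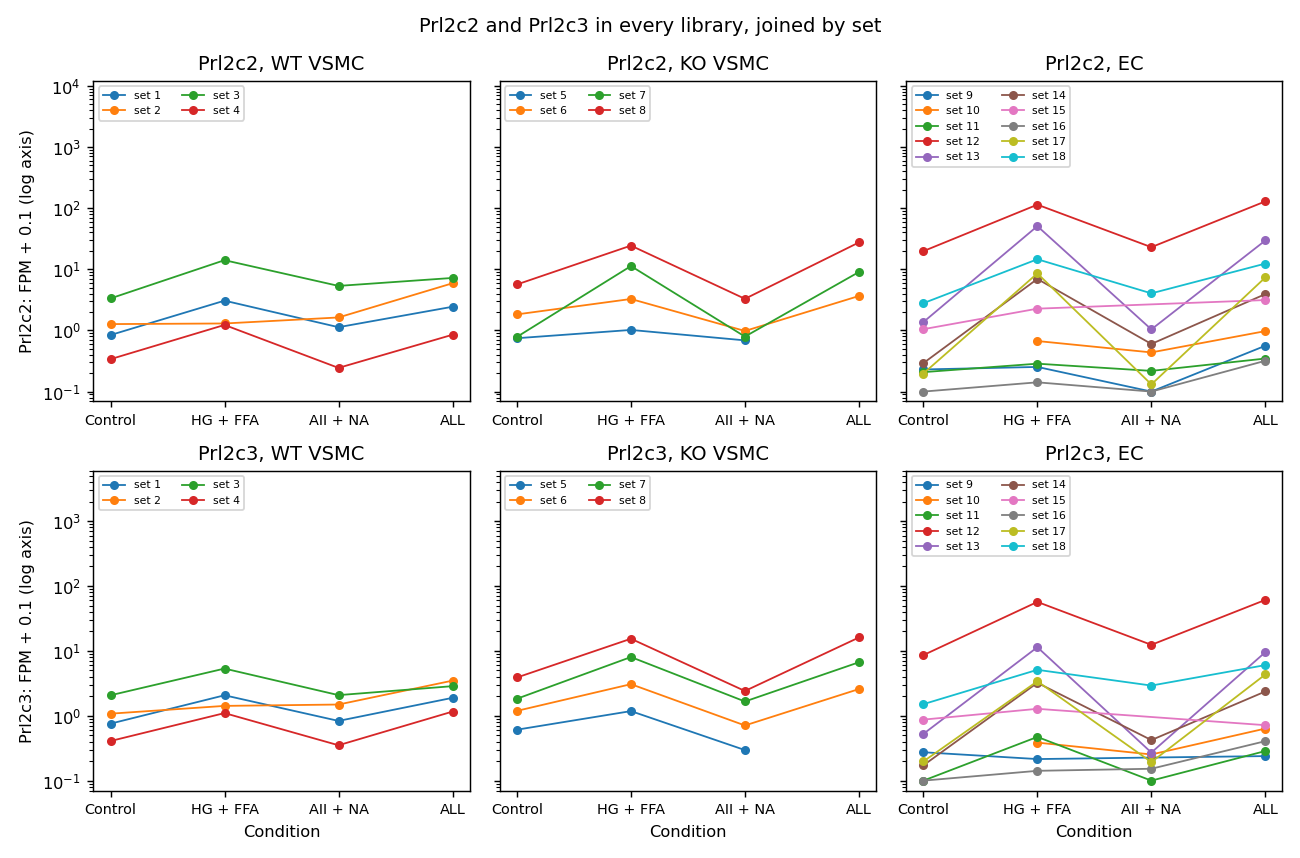
FPM + 0.1 (log axis) of Prl2c2 (top) and Prl2c3 (bottom) in every library against condition, in WT VSMC, KO VSMC and EC, with 1 line per set and no point where a library was not analysed. HG + FFA and ALL lie above Control along most lines, and levels run from 0 counts in EC set 16 Control to 129 FPM of Prl2c2 in EC set 12 under ALL.

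Per kilobase of exon, Prl2c2 stood above Prl2c3 in each mean. In WT VSMC Control the means were 1.24 ± 1.21 FPM per kb (SD, n = 4) for Prl2c2 and 0.720 ± 0.528 for Prl2c3, and in EC under ALL they were 17.2 ± 36.6 (n = 10) and 6.23 ± 13.8. Prl2c2 took a median of 62.8% of the counts of both genes over the 39 libraries with at least 50 such counts and exceeded Prl2c3 in 35 of them. The share was 67.7% in EC (58.3% to 83.2%), 60.1% in WT VSMC (47.8% to 72.8%) and 58.2% in KO VSMC (28.4% to 63.1%). Across libraries, log2 levels of both genes had a Pearson r of 0.974 in WT VSMC (n = 16), 0.936 in KO VSMC (n = 15) and 0.973 in EC (n = 38), a description of genes that share reads, library and set.

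**Figure D2:**
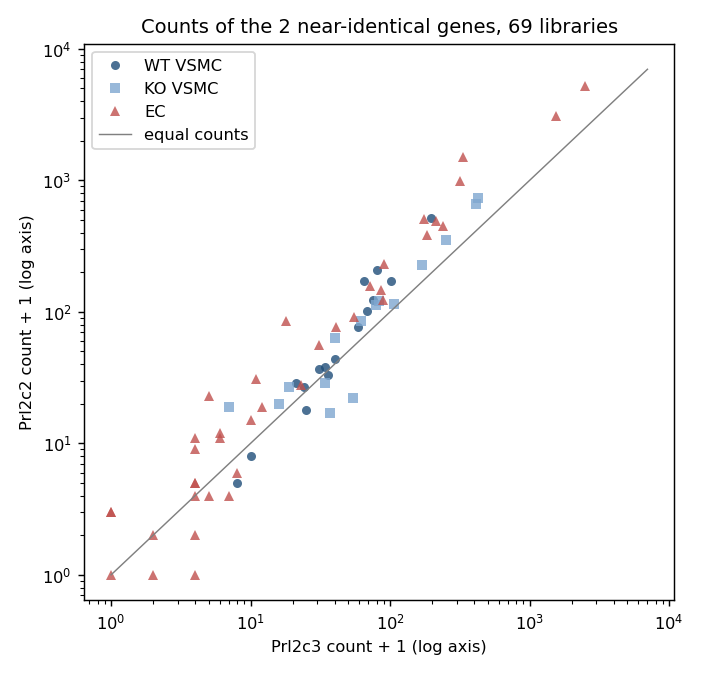
Count + 1 of Prl2c2 against that of Prl2c3 (log axes) in 69 libraries, with symbols for WT VSMC, KO VSMC and EC and a line at equal counts. Most libraries with many counts lie above the line, and Prl2c2 took a median of 62.8% where both genes together had at least 50 counts.

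Prl2c5 was at or near 0. No library had more than 5 counts in WT VSMC, 7 in KO VSMC or 35 in EC, and 52 of 69 libraries had 0. It did not pass the count filter in any cell type and has no fitted value. In WT VSMC, Control had 0 counts in 4 of 4 libraries, and a count of 0 allows up to 3 counts (counting error only), or 0.079 to 0.102 FPM, in each. There, HG + FFA had 1, 1, 5 and 2 counts. In KO VSMC, Control and HG + FFA had 0 in all 8 libraries, AII + NA had 4 counts in set 8, and ALL had 1 in set 7 and 7 in set 8. In EC, most of the 76 counts were in set 12, the set highest for Prl2c2, with 3 under Control, 21 under HG + FFA, 4 under AII + NA and 35 under ALL. Under ALL the same EC library held 5265 counts of Prl2c2 and 2481 of Prl2c3.

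In KO VSMC, whose values were not among those that chose the genes, both tested members rose under HG + FFA and under ALL. Prl2c2 was at 0.919, 3.17, 11.2 and 24.3 FPM under HG + FFA in sets 5 to 8. Every set was above its own Control, by 0.45 to 3.84 on the log2(FPM + 0.1) scale, although the groups overlapped. The fitted log2FC was 1.98 ± 0.41 (SE, 4 sets) with an FDR of 0.0469 by the quasi-likelihood test of edgeR and 0.0278 by DESeq2, close to the limit of 0.05. Prl2c3 was at 1.08, 2.97, 7.94 and 15.3 FPM, again above Control in 4 of 4 sets, with a log2FC of 1.78 ± 0.20 and an FDR of 0.00157. It ranked 2 by p among 17538 genes. The exact two-sided sign-flip test gave p = 0.125 for each gene, the smallest possible with 4 sets, so it could not reach 0.05. Both met the criteria for a differentially expressed gene (DEG: FDR under 0.05 in edgeR and DESeq2, |log2FC| of at least 0.64, at least 3 FPM in a group, protein-coding or lncRNA), as did 0.234% of all genes in the upward direction.

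Under ALL, Prl2c2 was at 3.56, 8.93 and 27.4 FPM in KO VSMC sets 6 to 8 and Prl2c3 at 2.48, 6.58 and 16 FPM. Each of the 3 sets was above its Control for both genes. The exact two-sided sign-flip test gave p = 0.25 for each gene, the smallest possible with 3 sets. The log2FC was 2.11 ± 0.43 for Prl2c2 (FDR 0.0468) and 1.69 ± 0.22 for Prl2c3 (FDR 0.00334, edgeR), and both were DEG, against 0.217% of all genes called upward. Most of these calls were lost when set 6, 7 or 8 was left out. For Prl2c2 under HG + FFA the edgeR FDR was 0.179 without set 6 (log2FC 2.38), 0.484 without set 7 (1.34) and 0.346 without set 8 (1.88), and under ALL it was 0.155, 0.421 and 0.314. Prl2c3 kept its call under HG + FFA without set 6 (FDR 0.0346) and set 8 (0.0167) but not without set 7 (0.0827, log2FC 1.61), and under ALL it lost it without set 6, 7 or 8 (0.0788, 0.13 and 0.0651, log2FC 1.84, 1.59 and 1.45). Without set 5, the set with residual Egfr, Prl2c2 had log2FC values of 2.23 (FDR 0.00892) and 2.20 (FDR 0.0098) for the 2 stressor conditions and Prl2c3 1.91 (FDR 0.000558) and 1.77 (FDR 0.00146). Fitted to the 2 groups alone, the HG + FFA effects were 1.92 for Prl2c2 (FDR 0.768) and 1.74 for Prl2c3 (FDR 0.309), and those of ALL 2.26 (FDR 0.00133) and 1.75 (FDR 0.00209). Without the replicate block the HG + FFA effects were 2.21 and 1.95, and those of ALL 2.64 and 2.24, each with an FDR of 1.

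In WT VSMC under HG + FFA, Prl2c2 was at 2.97, 1.20, 14 and 1.13 FPM in sets 1 to 4. Sets 1, 3 and 4 were above their Control by 1.87, 2.08 and 1.85 on the log2(FPM + 0.1) scale, while set 2 was level at 0.04. Under ALL the values were 2.34, 5.81, 7.12 and 0.750 FPM, and set 2 had the largest log2 ratio, 2.22, while set 3 had the smallest, 1.11. The fitted log2FC was 1.75 ± 0.39 for HG + FFA and 1.76 ± 0.40 for ALL. Prl2c3 was at 1.97, 1.32, 5.24 and 1.0 FPM under HG + FFA and 1.79, 3.38, 2.76 and 1.06 FPM under ALL. Its log2FC was 1.30 ± 0.30 and 1.33 ± 0.31.

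EC had higher fitted log2FC values than either VSMC genotype, a difference that was not tested, and a wide spread. Prl2c2 had a lowest, median and highest value of 0.0417, 4.51 and 114 FPM under HG + FFA and of 0.219, 3.44 and 129 FPM under ALL (10 sets each), beside 0, 0.192 and 19.7 FPM in Control (9 sets). It was above Control in 9 of 9 sets under both conditions. The log2 ratio was between 0.14 and 5.44 under HG + FFA and between 0.74 and 5.22 under ALL. Its medians were 2.39 and 2.16, beside 1.47 and 2.28 in KO VSMC and 1.86 and 1.43 in WT VSMC. The fitted log2FC of 3.36 ± 0.44 for HG + FFA stood beside one for ALL of 3.18 ± 0.44. Prl2c3 had 0.0417, 2.15 and 56.8 FPM under HG + FFA and 0.139, 1.44 and 61.0 FPM under ALL, and was above Control in 8 of 9 and 7 of 9 sets. Its fitted log2FC was 2.86 ± 0.49 and 2.88 ± 0.50. Without sets 9, 11 and 13 the log2FC of Prl2c2 was 3.04 ± 0.45 and 2.95 ± 0.45 and that of Prl2c3 2.62 ± 0.50 and 2.74 ± 0.50.

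**Figure D3:**
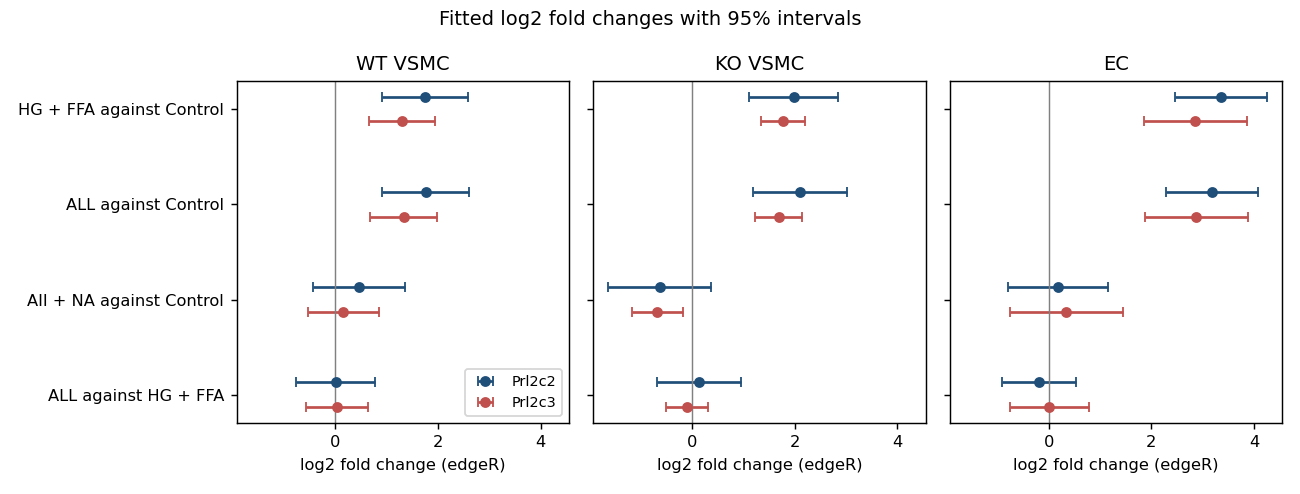
Fitted log2 fold changes of Prl2c2 and Prl2c3 (edgeR, replicate block, points) with 95% intervals (bars) for 4 contrasts in WT VSMC, KO VSMC and EC. HG + FFA and ALL lie above 0 against Control in each cell type, whereas ALL against HG + FFA spans 0, and those for HG + FFA and ALL in WT VSMC and EC are descriptions of effects that led to the choice of the genes.

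The size of the EC difference varied widely between sets. Between Control and HG + FFA the Prl2c2 count went from 3 to 231 in set 17, from 30 to 1499 in set 13 and from 8 to 156 in set 14. In sets 9, 11 and 16 no condition had more than 10 counts of Prl2c2. Set 12 was the highest in every condition and had the highest mean endothelial sum, 4360 FPM. Set 13, with 50.7 FPM under HG + FFA, had the lowest endothelial sum. Sets 17 and 18, of 1 mouse, had endothelial sums of 557 and 3730 FPM. Their Control levels of Prl2c2 were 0.0975 and 2.69 FPM, 27.6-fold apart, but under HG + FFA they were 8.46 and 14.5 FPM, 1.71-fold apart. The part of cell composition in these differences was not tested.

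**Figure D4:**
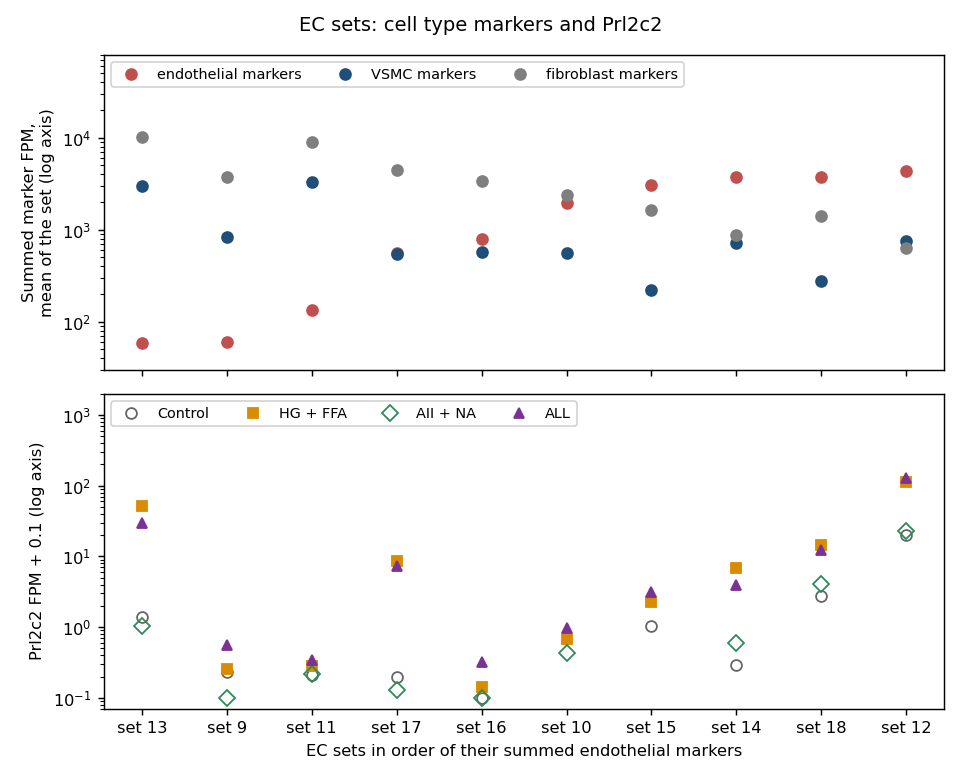
EC sets in order of their summed endothelial markers, with the mean summed FPM of endothelial, VSMC and fibroblast markers (top) and Prl2c2 FPM + 0.1 in each condition (bottom), both on log axes. Prl2c2 under HG + FFA is high both in set 13, at the low end of the endothelial sums, and in set 12, at the high end, while sets 9, 11 and 16 stay under 0.5 FPM in all conditions.

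Where the same mouse gave both cell types, VSMC mostly had more Prl2c2. In the mouse of EC set 9 and WT VSMC set 1, EC had 0.13 FPM and VSMC 0.741 FPM in Control, and 0.153 and 2.97 FPM under HG + FFA. In the mouse of EC set 16 and KO VSMC set 6, EC had 0 counts in Control and VSMC 1.73 FPM. In the mouse of EC set 15 and KO VSMC set 7, Control levels were 0.948 FPM in EC and 0.684 FPM in VSMC, and those under HG + FFA 2.17 and 11.2 FPM.

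AII + NA alone had no detected effect on Prl2c2 or Prl2c3. These contrasts use the same Control libraries as those above. In WT VSMC Prl2c2 was at 1.03, 1.53, 5.25 and 0.144 FPM, above Control in 3 of 4 sets, with a log2FC of 0.46 (95% interval -0.43 to 1.35, edgeR FDR 0.787). Prl2c3 had a log2FC of 0.15 (-0.54 to 0.84, FDR 0.921). In KO VSMC Prl2c2 was at 0.588, 0.880, 0.693 and 3.19 FPM, with a log2FC of -0.63 (-1.63 to 0.37, FDR 0.597). Prl2c3 was at 0.196, 0.609, 1.56 and 2.31 FPM, below Control in 4 of 4 sets, and its log2FC of -0.68 (-1.17 to -0.18) had an unadjusted edgeR p of 0.0106 and an FDR of 0.509. In EC the log2FC was 0.18 (-0.79 to 1.16, FDR 0.939) for Prl2c2 and 0.34 (-0.76 to 1.44, FDR 0.897) for Prl2c3, and an exact two-sided sign-flip test over 8 sets gave p = 0.891 and p = 0.344 (p = 0.844 and p = 0.406 over 7 animals, exact). Without EC sets 9, 11 and 13 the log2FC was 0.32 for Prl2c2 and 0.50 for Prl2c3 (edgeR FDR 0.999 for both). Of all genes 7 in WT VSMC (0.0414%) and 0 in KO VSMC and EC (0.0%) were DEG under AII + NA. At an unadjusted p under 0.05 edgeR gave 1711 genes in KO VSMC and 1143 in EC, and an FDR under 0.05 in DESeq2 11 and 0.

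In KO VSMC no further change was detected when AII + NA was added to HG + FFA. ALL against HG + FFA gave a log2FC of 0.13 for Prl2c2 (95% interval -0.69 to 0.95) and -0.09 for Prl2c3 (-0.51 to 0.32), each with an edgeR FDR of 0.999. Of all genes 0 were DEG in KO VSMC (0.0%), where edgeR gave 510 genes at an unadjusted p under 0.05 and DESeq2 none at an FDR under 0.05. In WT VSMC and EC both conditions were among those that chose the genes, so their contrast is a description. It was 0.01 (-0.77 to 0.78) for Prl2c2 and 0.03 (-0.58 to 0.63) for Prl2c3 in WT VSMC. In EC it was -0.18 (-0.90 to 0.54) and 0.01 (-0.75 to 0.78), or -0.09 and 0.12 without sets 9, 11 and 13. The departure from additivity on the log2 scale was 0.76 ± 0.61 for Prl2c2 (edgeR FDR 0.697) and 0.59 ± 0.31 for Prl2c3 (FDR 0.658) in KO VSMC. As a description, it was -0.45 ± 0.55 and -0.12 ± 0.43 in WT VSMC, but -1.20 and -0.41 without set 2 and 0.15 for both genes without set 3. In EC it was -0.36 ± 0.60 and -0.32 ± 0.67, or -0.41 and -0.38 without sets 9, 11 and 13.

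No difference between the genotypes was detected in Control. KO VSMC minus WT VSMC was 0.63 for Prl2c2 (95% interval -1.34 to 2.61, edgeR FDR 0.756) and 0.82 for Prl2c3 (-0.75 to 2.38, FDR 0.607), and the exact two-sided permutation test of log2 FPM gave p = 0.571 and p = 0.4, where 0.0286 is the smallest possible. Of 16089 genes 0.00622% were DEG, with neither member nor the targeted gene Egfr among them. Egfr had Control means of 365 FPM in WT VSMC and 10.6 FPM in KO VSMC, so these criteria could miss a large difference. With 1 set left out in turn, the Prl2c2 difference ranged from -0.45 (without KO VSMC set 8) to 1.53 (without WT VSMC set 3) and the Prl2c3 difference from 0.13 to 1.41, at the same sets. Subtracting the KO VSMC effect from the WT VSMC effect gave, for HG + FFA, -0.23 (-1.52 to 1.07) for Prl2c2 and -0.48 (-1.24 to 0.29) for Prl2c3. For ALL it was -0.35 (-1.68 to 0.99) and -0.36 (-1.16 to 0.44), and for AII + NA 1.10 (-0.32 to 2.52) and 0.84 (-0.01 to 1.69). These differences are given without a test, and that of HG + FFA for Prl2c2 was 0.43 without KO VSMC set 7 and 0.14 without WT VSMC set 2.

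The rest of the family had low counts. Of the 24 other prolactin and growth hormone genes, none reached a mean of 3 FPM in a cell type, and Prl3a1, a placental member, had 0.375 FPM in KO VSMC. In EC, Prl8a9 had 62 of its 66 counts in 1 library (1.99 FPM), and Prl3b1 had 57 of 93 in 1 library (1.83 FPM). Between 0 and 3 of them passed the count filter, and of their 12 tests against Control 0 were DEG, 0 had an FDR under 0.05 in edgeR or DESeq2 and 1 had an unadjusted edgeR p under 0.05. Over all genes these contrasts gave 0.0% to 2.18% DEG and 6.67% to 21.7% with such a p. Prl2c1, which shares windows of 75 bases with the members but lies elsewhere on chromosome 13, had at most 2 counts in a library. The pseudogene Gm7040, within 500 kb of Prl2c5, had 4 counts in EC Control, 136 under HG + FFA, 8 under AII + NA and 246 under ALL. Most of them were in set 12, with 2, 64, 6 and 221 counts.

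Trophoblast and placenta genes were also low, none of 12 with a mean of 3 FPM. The 5 trophoblast markers summed to at most 0.108 FPM in WT VSMC and 0.313 FPM in KO VSMC. In EC the sum reached 9.64 FPM, in set 9, where it was the heart and trophoblast transcription factor Hand1. Set 18 had the next highest mean sum, 0.95 FPM, and set 12 had a mean of 0.122 FPM. Some EC counts were concentrated in 1 library, with 131 of 136 for Psg21 (4.19 FPM there). The same held for Tpbpa with 86 of 129 (2.75 FPM) and Tpbpb with 55 of 58 (1.76 FPM). The source of these counts was not tested. Of 9 tests 0 were DEG and 0 passed in edgeR or DESeq2 alone (2 at an unadjusted p under 0.05). Over all genes the same contrasts gave 0.0% to 2.18% DEG and 6.67% to 21.7% at that edgeR p.

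Among receptors, Igf2r had means of 346 FPM in WT VSMC, 245 FPM in KO VSMC and 370 FPM in EC. Its log2FC lay between -0.41 and 0.32 in the 9 contrasts with Control and passed none. Ghr, the growth hormone receptor, had means of 249, 366 and 488 FPM, and Prlr, the prolactin receptor, 0.308, 0.137 and 0.106 FPM. Of the 30 tests in the list 0 were DEG and 7 had an unadjusted edgeR p under 0.05, and the median log2FC lay between -0.47 and 0.12, beside -0.01 to 0.01 over all genes. The share over all genes in these contrasts was 0.0% to 2.18% for DEG and 6.67% to 21.7% for such a p. An FDR under 0.05 without the other criteria was found in WT VSMC under ALL for Ghr (log2FC -0.58, edgeR FDR 0.00165) and Prlr (-2.60, FDR 0.028).

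Of 72 tests of the AP-1 genes and Nr3c1, the glucocorticoid receptor, 0 were DEG and 15 had an unadjusted edgeR p under 0.05, and the median log2FC lay between -0.28 and 0.12. Over all genes the contrasts with Control gave 0.0% to 2.18% DEG and 6.67% to 21.7% with such a p. Jun had an FDR under 0.05 in edgeR under HG + FFA in EC (log2FC -0.42, FDR 0.0215) and under ALL in WT VSMC (-0.57, FDR 0.00818), in the downward direction, and Junb in DESeq2 alone under HG + FFA in EC (-0.47, FDR 0.0202). Fosl2, with 257 FPM in WT VSMC, had log2FC values between -0.11 and 0.35. Of the 81 tests of growth factors and their receptors 0 were DEG and 14 had an unadjusted edgeR p under 0.05, with a median log2FC between -0.27 and 0.17. Pdgfrb had 591 FPM in WT VSMC, and Fgfr1 alone had an FDR under 0.05 in edgeR, with -0.44 in WT VSMC under ALL (FDR 0.0161) and -0.31 and -0.27 in EC under HG + FFA and ALL (FDR 0.0193 and 0.0491). The other receptors and ligands had no FDR under 0.05 in either tool.

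No neighbouring gene that was tested passed. The annotation places 49 other genes within 500 kb of a member. For the entries that share the name Gpr137b-ps, counts of the same gene identifier were read. In each cell type 7 of the 49 had a mean of at least 3 FPM, while 9 or 10 of them passed the count filter and the others, Gm7040 included, were not tested. Those above 3 FPM include the basement membrane gene Nid1 (984, 501 and 638 FPM in WT VSMC, KO VSMC and EC) and the lysosomal trafficking gene Lyst (34.8, 25.2 and 79.2 FPM). Of 87 tests 0 were DEG, 0 had an FDR under 0.05 in edgeR or DESeq2 and 9 had an unadjusted edgeR p under 0.05. Over all genes the contrasts with Control gave only 0.0% to 2.18% DEG, and 6.67% to 21.7% had such a p. The median log2FC lay between -0.05 and 0.12.

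Centred within sets, Prl2c2 and Prl2c3 had an r of 0.968, 0.919 and 0.940 in WT VSMC, KO VSMC and EC. Members left out, different genes were the 5 most like Prl2c2 in each cell type. In EC they were Angptl4, a fatty acid-induced inhibitor of lipoprotein lipase (r = 0.850 over 38 libraries, centred within sets), Hsd17b12 (0.842), Gla (0.831), Serpinb9b (0.826) and Pgk1 (0.823). Angptl4 had log2FC values of 3.22 under HG + FFA, -0.16 under AII + NA and 3.22 under ALL. In KO VSMC they were AI506816 (0.954 over 15 libraries), Mlkl (0.953), Zmpste24 (0.952), P4ha1 (0.951) and Sfxn1 (0.950), and in WT VSMC Tubd1 (0.907 over 16 libraries), Ncaph (0.897), Cdk1 (0.880), Abhd8 (0.879) and Tlcd5 (0.877). These are the top of 11697, 11561 and 11448 genes compared, and the points share sets and Control libraries.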

How the data were processed

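Poly(A) RNA of each culture was sequenced, and the authors deposited raw counts per Ensembl gene after alignment with HISAT2 2.1.0 to mm39 and counting with featureCounts, multi-mapped reads included. Strand use is not given in the sources used here. Groups and set numbers came from the labels. The counts were fitted within each cell type with edgeR 4.0.16 (quasi-likelihood test, TMM, filterByExpr with a minimum count of 10, set as a replicate block) in R 4.3.3, beside DESeq2 1.42.0, with Benjamini-Hochberg adjustment over all genes tested (FDR). Log2 ratios used a pseudocount of 0.1 FPM. Permutation and sign-flip tests used SciPy 1.17.1. The fits were also run on simulated counts with the same effect in every set, unlike the members, whose effects varied between sets. Members and gene lists were chosen with earlier results of these data known, and the genes most like Prl2c2 were the 5 with the highest r in each cell type, members left out. Libraries of 1 set came from 1 animal and deviated together (mean r of 0.71, 0.68 and 0.73 for WT VSMC, KO VSMC and EC within sets, and -0.25, -0.25 and -0.09 between sets). Alternatives changed the tool, scaling, filter, block, samples and the counting of members. Within each cell type all sets came from separate animals except EC sets 17 and 18, while some EC sets shared a mouse with a VSMC set. Intervals of values fitted with the block include the spread of effects between sets, but not that of levels, which the block takes up. The genotype contrast in Control had no block. The floor for a count of 0 covers counting error only.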

Additional observations from a re-analysis of the deposited data

Results flagged for a closer look

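In 10 of 22 groups of libraries the highest library lay far from the others, on the linear FPM scale. Chance flags about 1 in 20 groups of normally distributed values, but FPM are skewed and the groups share sets, and on the log2(FPM + 0.1) scale, tried after seeing the data, 0 of the 22 groups were flagged. In 8 of them the library was EC set 12. Its Prl2c2 level was 19.7 FPM in Control (the nearest library had 2.69 FPM), 114 FPM under HG + FFA (50.7 FPM), 22.9 FPM under AII + NA (3.94 FPM) and 129 FPM under ALL (29.5 FPM). Its Prl2c3 level was 8.51 FPM in Control (1.41 FPM), 56.8 FPM under HG + FFA (11.3 FPM), 12.3 FPM under AII + NA (2.82 FPM) and 61.0 FPM under ALL (9.46 FPM). In WT VSMC under HG + FFA, set 3 had 14 FPM of Prl2c2 against 2.97 FPM in the nearest set. In KO VSMC under AII + NA, set 8 had 3.19 FPM of Prl2c2 against 0.880 FPM.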

How the results depend on the processing

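Calls for the members turned on the block, the samples fitted and single sets in KO VSMC. Without the replicate block the KO VSMC log2FC was 2.21 (HG + FFA) and 2.64 (ALL) for Prl2c2 and 1.95 and 2.24 for Prl2c3, and no call was kept. With only the 2 groups compared, HG + FFA gave 1.92 and 1.74, not past the threshold. Leaving out 1 set gave 1.34 to 2.38 (Prl2c2, HG + FFA), 1.68 to 2.56 (Prl2c2, ALL), 1.61 to 1.91 (Prl2c3, HG + FFA) and 1.45 to 1.84 (Prl2c3, ALL) in KO VSMC.

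Small effects with no call changed sign. For ALL against HG + FFA, Prl2c2 in WT VSMC gave -0.01 in DESeq2, -0.0024 without a count filter and -0.27 without the replicate block, and Prl2c3 -0.09 without the block. In KO VSMC Prl2c2 gave -0.03 in complete sets and -5.33e-05 with 2 groups, and Prl2c3 0.06 with members summed and 0.29 without the block. In EC Prl2c2 gave 0.05 in DESeq2 and Prl2c3 -0.12 with members summed. Leaving out 1 set gave -0.68 to 0.43 (Prl2c2) and -0.39 to 0.40 (Prl2c3) in WT VSMC, -0.03 to 0.34 (Prl2c2) in KO VSMC and -0.07 to 0.09 (Prl2c3) in EC. It gave -0.01 to 0.39 for Prl2c2 under AII + NA in EC and -0.45 to 1.53 for KO VSMC against WT VSMC. The causes were not tested.

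With the FDR of edgeR or DESeq2 alone in place of all DEG criteria, the counts of genes went from 110 to 546 and 895 (EC, ALL), 111 to 605 and 969 (EC, HG + FFA), 368 to 1259 and 1645 (WT VSMC, ALL), 48 to 91 and 294 (WT VSMC, HG + FFA) and 50 to 77 and 246 (KO VSMC, HG + FFA). DESeq2 alone gave 259 against 55 (KO VSMC, ALL), 11 against 0 (KO VSMC, AII + NA), 169 against 7 (WT VSMC, AII + NA), 224 against 5 (WT VSMC, ALL against HG + FFA), 343 against 1 (genotypes in Control) and 58 against 2 (effect of ALL between genotypes). Leaving out EC sets 9, 11 and 13, chosen after seeing the data, changed none of 10 EC results. Levels under about 1 FPM rest on few counts.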
